A study of Mus musculus with 28 samples.

Results

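Cells of the mouse subependymal zone (SEZ) that descended from dividing cells were compared at day 60 and day 2 after labelling. The cells were chosen by their sort: 4 libraries of tdTomato+ SEZ cells taken 60 days after tamoxifen, without the libraries that mixed in olfactory bulb cells, and 4 libraries of tdTomato+ SEZ cells taken at day 2. A well counted as a cell when its gene rows, without ERCC spike-in RNA, summed to at least 1000 estimated transcripts. This gave 349 cells at day 60 and 220 at day 2, or 569 of the 1789 cells in the 28 libraries and 7 sorts of the series.

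All 8 libraries came from Bl/6 mice that carried Ki67iresCreER and Rosa-tdTomato and received 5 mg of tamoxifen once. Mice were 16 to 19 weeks old in the day-60 group and 8 to 10 weeks old in the day-2 group, so days since labelling and age cannot be told apart. In this model the recombinase is made from the Mki67 locus, so tdTomato is switched on in cells that express Mki67 when tamoxifen acts and is inherited by their progeny. Labelled cells that had left the SEZ by day 60 were not in the sort, and no sort of unlabelled cells stood beside these groups. SORT-seq places 1 sorted cell in each well of a 384-well plate and reads its polyadenylated RNA by the CEL-seq protocol. Each library held 96 wells, so the 4 libraries of a group filled as many wells as 1 plate. The labels do not give the number of mice, and p-values may therefore measure only the spread between parts of a plate. The names of the day-60 tables carry a flow cell and those of the day-2 tables carry none, so a difference in sequencing run and the difference in day cannot be told apart either.

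The SEZ lines the lateral ventricles and makes neurons throughout adult life. Its neural stem cells (NSCs) are astroglial cells that rest for long periods, share most of their marker genes with ordinary astrocytes, and on activation give rise to dividing transit-amplifying progenitors. These progenitors form neuroblasts, which migrate to the olfactory bulb and become interneurons, so most of what divides in the SEZ on a given day has left it some weeks later.

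The day-60 libraries held 89, 85, 89 and 86 cells and the day-2 libraries 50, 44, 64 and 62. Summed over cells, libraries held 435099.6 to 475783 transcripts at day 60 and 250034 to 368351 at day 2, once the ribosomal precursor Rn45s, Lars2, Rn4.5s and the predicted Gm genes had been left out. Before that, those symbols made up 6.75% to 7.77% of transcripts at day 60 and 0.952% to 1.19% at day 2, mostly through Rn45s. On a log2 scale the 4 libraries of a group correlated across genes at 0.923 to 0.939 (day 60) and 0.915 to 0.937 (day 2), against 0.238 to 0.375 between groups. Library 1 of day 60 stood apart in genes of the choroid plexus (values by library and without it below).

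The lineage gene was checked first. Mki67 (chromosome 7, 135689784 to 135716361 in mm10), whose protein coats the chromosomes of dividing cells, stood at 0 in each of the 4 day-60 libraries. In day-2 libraries 1 to 4 it stood at 223, 236, 225 and 179.6 transcripts per 1000000 (CPM, scaled between libraries by a trimmed mean of gene ratios). With a floor of 3 transcripts over the day-60 cells it was at least 126.2-fold lower than at day 2. It could enter the tests below only through its day-2 values and had to differ there, so no p-value is given for it. In single cells, each drawn down at random to 1000 transcripts, 24 of 220 day-2 cells and 0 of 348 day-60 cells held a Mki67 transcript. Most day-2 cells, labelled through this locus 2 days before, thus held no Mki67 transcript at this depth. Without thinning, 68 day-2 cells and 0 day-60 cells held one.

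Of 7570 genes that passed a filter on low values, 5118 (67.6%) differed between the days at an adjusted p under 0.05. They split into 2645 genes higher at day 60 (34.9%) and 2473 lower (32.7%), and the median log2 fold of all genes tested was 0.02. Of these, 2151 were higher and 1782 lower by more than 1 on the log2 scale. Every fold below is day 60 over day 2, on the log2 scale, ± its standard error with n = 4 libraries a group, and "passed" means an adjusted p under 0.05 by limma voom over all genes tested. With so many genes differing, a list of related genes is described by its counts and median beside 67.6%, 34.9%, 32.7% and 0.02. A gene present in 1 group alone reached the filter through that group and had to differ, so the counts over tested members describe these lists and were not tested as sets.

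Genes of the cell cycle were lower at day 60 from the licensing of origins to mitosis. Of 20 tested genes for origin licensing and the MCM helicase 18 fell and 0 rose (median -3.80). Of 35 genes for the replication fork, nucleotide supply and S phase histone handling 33 fell (median -3.51), of 30 mitotic kinases, cyclins and APC/C genes 29 (median -5.88), of 39 kinesin, spindle and kinetochore genes 38 (median -5.43) and of 32 genes for chromosome structure 32 (median -2.89), with none of these rising. Genes at 0 were then set to their bounds, and genes with 1 to 3 transcripts in 1 group to their count ratios. The medians of the mitotic kinase and spindle lists became -6.09 and -5.40, and those of the other 3 lists were as given. Lists share members where a gene has more than 1 role. A sum over cells does not tell fewer expressing cells from less RNA in each, so counts of single cells are given beside the sums.

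Among licensing genes, Mcm2 and Mcm5 encode subunits of the helicase loaded at replication origins. Mcm5 stood at 2.22, 9.07, 2.39 and 4.55 CPM in day-60 libraries 1 to 4 and at 144, 194, 192 and 214 at day 2. No day-60 library came near a day-2 library, and the fold was -5.19 ± 0.45 (adjusted p = 1.9e-08). The fold of Mcm2 was -5.61 ± 0.54 and that of Dbf4, the activator of the Cdc7 kinase that fires origins, -4.96 ± 0.56. Cdc45, which joins the MCM ring in the active helicase, had 1 to 3 transcripts over all day-60 cells, and its log2 ratio was -7.50 (95% counting interval -12.82 to -5.00).

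Rrm2, the small subunit of ribonucleotide reductase, supplies deoxynucleotides in S phase. It stood at 892, 716, 994 and 886 CPM in the day-2 libraries and at 2.22, 0, 2.39 and 0 at day 60, where libraries 1 and 3 held it. Its log2 ratio, from about 2 transcripts at day 60, was -9.59 (95% counting interval -12.64 to -7.73). Tk1, the thymidine kinase of the salvage path, and Asf1b, a histone chaperone of replicating chromatin, stood at 0 in all day-60 libraries and were at least 86.6-fold and 64.2-fold lower than at day 2. 2810417H13Rik, the gene of the PCNA-associated factor, had a fold of -6.09 ± 0.45. Pcna itself, the sliding clamp that also serves DNA repair, was found in 50 of 348 day-60 cells and 92 of 220 day-2 cells. At this depth day-60 cells thus held Pcna transcripts but none of Mki67 or Top2a.

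Cdk1, the kinase that drives entry into mitosis, stood at 0, 0, 2.39 and 0 CPM at day 60 and at 593, 429, 456 and 329.9 at day 2. Its log2 ratio was -9.61 (95% counting interval -14.92 to -7.13). Birc5 (survivin, of the chromosomal passenger complex), Bub1 (a kinase of the spindle checkpoint) and Pbk (a mitotic kinase) were at 0 in every day-60 library and at least 133-fold, 107-fold and 218-fold lower. Of genes of the spindle, Ckap2 and Kif23, the kinesin of the midzone, were also at 0 at day 60 and at least 173-fold and 114-fold lower. Nusap1, which bundles spindle microtubules, and Racgap1, which acts in cytokinesis, had log2 ratios of -8.56 (95% counting interval -13.87 to -6.07) and -7.74 (95% counting interval -10.02 to -6.18), each from 1 to 3 transcripts at day 60.

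Top2a (topoisomerase II alpha, chromosome 11, 98992943 to 99024189), which untangles chromosomes before they part, stood at 1254, 965, 1003 and 925 CPM in the day-2 libraries and at 0, 0, 0 and 2.28 at day 60. Only library 4 of day 60 held any, and the log2 ratio was -10.81 (95% counting interval -16.12 to -8.34). Thinned to 1000 transcripts, 74 of 220 day-2 cells and 0 of 348 day-60 cells held it. Hmgb2 and Hmgn2, chromatin proteins that are abundant in dividing cells, fell by smaller amounts: Hmgb2 had a fold of -4.89 ± 0.26 and Hmgn2 of -5.37 ± 0.13. Ncaph, a condensin subunit, had a log2 ratio of -7.23 (95% counting interval -10.29 to -5.36).

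Of 18 genes for G1 cyclins, partner kinases and Cdk inhibitors, 12 fell and 3 rose (median -1.77). Ccnd2, cyclin D2, the D cyclin of SEZ progenitors, stood at 220.2, 169, 217 and 142 CPM at day 60 against 2527, 2435, 2572 and 2767 at day 2 (fold -3.80 ± 0.14, adjusted p = 3.7e-13). It was found in 34 of 348 day-60 cells and 180 of 220 day-2 cells, so more day-2 cells held Ccnd2 than held Mki67 or Top2a. The repressor E2F genes E2f7 and E2f8 and the pocket protein gene Rbl1 fell as well (Rbl1 -3.85 ± 0.49). The genes that rose were E2f6, Rb1, the retinoblastoma protein, at 0.60 ± 0.17, and Gas1, a growth arrest and Hedgehog co-receptor gene, at 1.63 ± 0.35. Under scaling by ERCC transcripts 1 gene of this list rose, in place of 3 (Rb1 then had an adjusted p of 0.052), and without day-2 library 4, when more genes reached the filter, 5 rose.

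**Figure D1:**
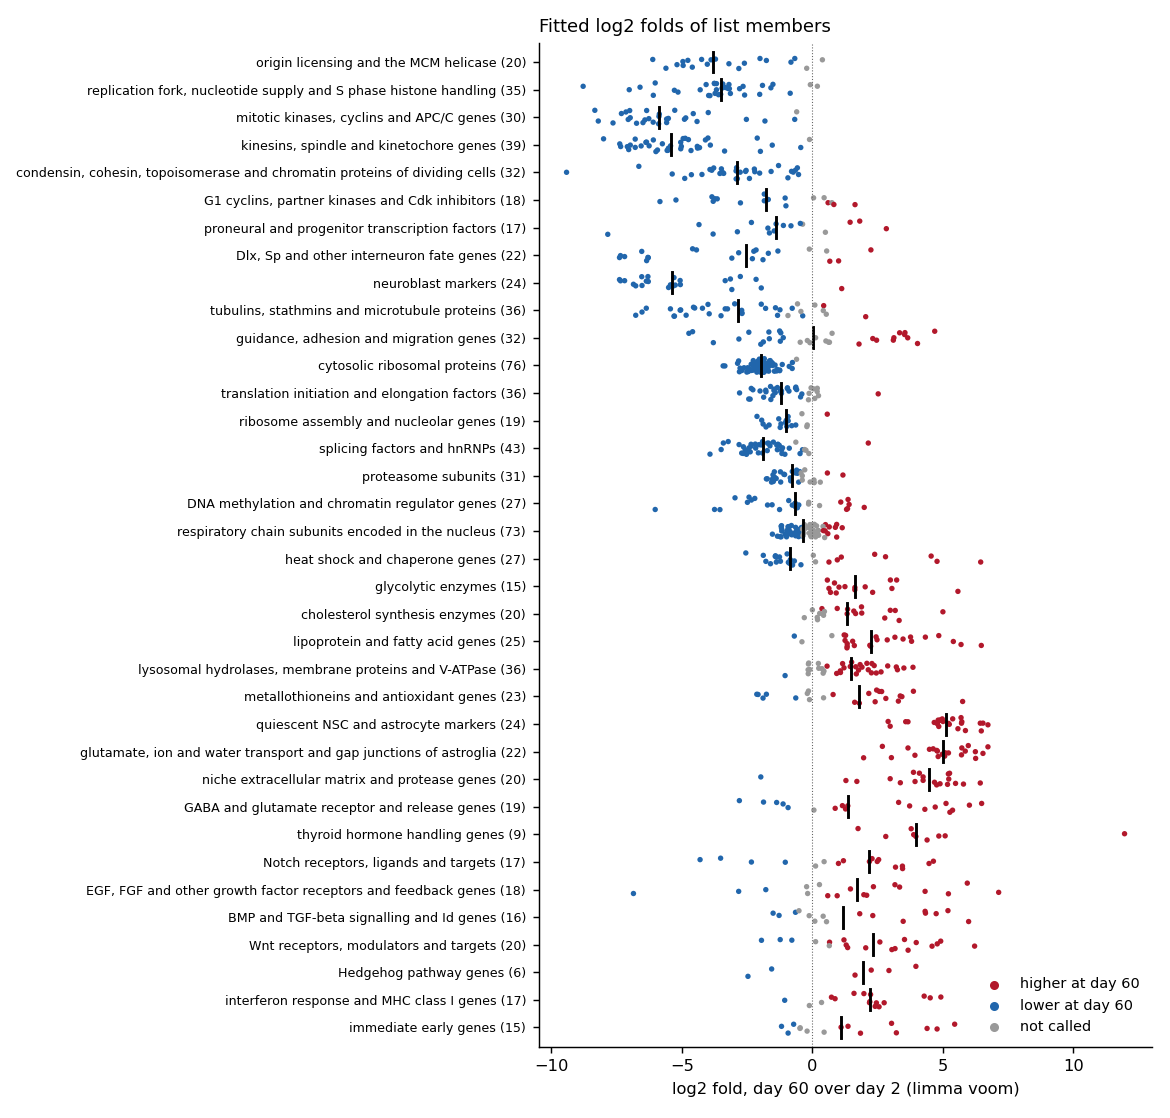
Log2 fold of day 60 over day 2 for each tested member of the gene lists (1 point a gene, horizontal axis), by list (vertical axis), coloured by whether it was higher, lower or not called, with a bar at the median of each list, its number of tested members in brackets and a dotted line at 0. The cell cycle lists lie to the left of 0 with medians from -5.88 to -2.89, apart from the G1 list at -1.77, and the astroglial lists to the right with medians of 5.11 and 5.02.

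Promoters of some of these genes were picked for printing because they hold, within a short window, letters that cell cycle regulators read. E2F factors bind TTTCCCGC, TTTGGCGC, TTTCGCGC or TTTGCCGC, the cell cycle genes homology region (CHR) reads TTTGAA or TTTAAA, and NF-Y binds CCAAT. Each was searched on both strands in 300-base windows from 250 bases before to 50 after the start, from RefSeq (GRCm38.p6). The CHR word TTTAAA reads the same on both strands, and E2F words overlap where a promoter holds them head to head. For each of the 4 lists of licensing, fork, mitotic kinase and spindle genes a pair of promoters is shown. They run from 250 bases before to 20 after the start, 5′ to 3′ on the gene's strand. Each pair was taken from the lowest folds among members that passed and hold the word. Its presence in the printed promoters was thus fixed by the choice, and they do not stand for their lists. Capitals mark the E2F words in Mcm5, Mcm6, 2810417H13Rik and Pole2 and the CHR words in Cdk1, Birc5, Ckap2 and Kif23.
Mcm5: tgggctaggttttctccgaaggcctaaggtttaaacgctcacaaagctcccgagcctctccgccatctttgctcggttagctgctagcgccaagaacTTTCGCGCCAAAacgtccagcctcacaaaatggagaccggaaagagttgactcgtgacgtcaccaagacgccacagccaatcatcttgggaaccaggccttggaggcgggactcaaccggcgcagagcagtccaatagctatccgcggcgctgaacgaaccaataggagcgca
Mcm6: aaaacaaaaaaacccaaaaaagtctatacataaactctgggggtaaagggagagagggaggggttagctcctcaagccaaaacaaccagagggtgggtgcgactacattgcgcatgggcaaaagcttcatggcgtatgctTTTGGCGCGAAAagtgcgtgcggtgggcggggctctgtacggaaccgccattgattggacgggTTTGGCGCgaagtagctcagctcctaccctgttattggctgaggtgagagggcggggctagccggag
2810417H13Rik: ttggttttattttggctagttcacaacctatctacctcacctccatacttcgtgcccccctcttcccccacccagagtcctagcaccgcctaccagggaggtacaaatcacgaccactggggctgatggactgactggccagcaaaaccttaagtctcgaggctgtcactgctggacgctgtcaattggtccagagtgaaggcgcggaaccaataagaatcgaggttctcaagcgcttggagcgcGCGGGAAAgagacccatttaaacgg
Pole2: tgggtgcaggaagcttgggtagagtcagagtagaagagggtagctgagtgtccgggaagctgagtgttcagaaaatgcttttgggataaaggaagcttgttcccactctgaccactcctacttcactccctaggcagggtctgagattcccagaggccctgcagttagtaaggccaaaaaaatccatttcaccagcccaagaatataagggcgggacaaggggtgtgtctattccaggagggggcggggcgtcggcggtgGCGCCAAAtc
Cdk1: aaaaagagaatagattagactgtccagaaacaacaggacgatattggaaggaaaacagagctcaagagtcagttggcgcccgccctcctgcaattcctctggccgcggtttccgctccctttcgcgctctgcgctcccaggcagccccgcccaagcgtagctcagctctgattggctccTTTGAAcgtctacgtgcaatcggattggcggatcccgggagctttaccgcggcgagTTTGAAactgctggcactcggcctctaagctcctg
Birc5: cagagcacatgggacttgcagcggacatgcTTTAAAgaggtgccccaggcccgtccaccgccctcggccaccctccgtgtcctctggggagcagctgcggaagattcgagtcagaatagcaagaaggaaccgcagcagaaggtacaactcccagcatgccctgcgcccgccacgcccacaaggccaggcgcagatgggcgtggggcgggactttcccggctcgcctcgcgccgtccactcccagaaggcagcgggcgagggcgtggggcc
Ckap2: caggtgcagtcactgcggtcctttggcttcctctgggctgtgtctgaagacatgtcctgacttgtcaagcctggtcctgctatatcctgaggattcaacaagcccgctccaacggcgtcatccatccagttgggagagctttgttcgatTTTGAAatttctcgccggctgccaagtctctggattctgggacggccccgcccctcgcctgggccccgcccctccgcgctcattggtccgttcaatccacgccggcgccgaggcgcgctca
Kif23: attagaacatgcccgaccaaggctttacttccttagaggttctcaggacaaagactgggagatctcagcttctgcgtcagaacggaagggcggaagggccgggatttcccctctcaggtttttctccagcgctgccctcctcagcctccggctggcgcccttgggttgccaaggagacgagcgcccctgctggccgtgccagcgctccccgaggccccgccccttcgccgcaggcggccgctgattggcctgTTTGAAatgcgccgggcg
The windows lie at chr8:75109259-75109528 (plus strand), chr1:128359686-128359955 (minus), chr9:65890073-65890342 (plus), chr12:69228171-69228440 (minus), chr10:69352893-69353162 (minus), chr11:117848987-117849256 (plus), chr8:22185800-22186069 (minus) and chr9:61946780-61947049 (minus), in the order printed.

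CHR words stood in 17 of 25 promoters of the mitotic kinase list (68%) and in 26 of 37 of the spindle list (70.3%), against 18.6% of 6133 tested genes with a window and 27.8% of all 27025 windows. CCAAT stood in 76% and 73% of the same lists, against 39.3% of tested genes. E2F words were in 6 of 29 promoters of the fork list (20.7%), 1 of 25 of the mitotic kinase list and 3 of 37 of the spindle list (8.11%), against 4.73% of tested genes and 2.32% of all windows. Over all genes that fell, 7.21% held an E2F word and 21.5% a CHR word, against 3.8% and 16.2% of those that rose. Windows were at hand for 15 of 20 licensing genes, 19 of 24 astroglial genes and 58 of 76 ribosomal genes, under the 80% required, so the motif shares of those lists are void. These matches describe letters in a window and show no binding.

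Progenitor genes and neurogenic factors were mostly lower at day 60. Of 16 tested markers of activated NSCs and transit-amplifying progenitors, 12 fell and 2 rose (median -3.29). Mycn, a driver of progenitor growth, had a fold of -5.21 ± 0.51, and Insm1, a factor of cycling neurogenic progenitors, a log2 ratio of -8.63 (95% counting interval -11.68 to -6.77). The exceptions of the list are Rgcc, a regulator of the cell cycle, which rose by 3.97 ± 0.56, and Egfr, taken up with the sort genes below.

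Of 17 proneural and progenitor transcription factors, 12 fell and 3 rose (median -1.39). Gsx2, a patterning factor of the lateral ganglionic eminence and its adult derivatives, fell (-3.80 ± 0.62), as did Pbx3 (-2.87 ± 0.35). Nr2e1 (Tlx), an orphan receptor needed to maintain NSCs, rose by 1.45 ± 0.25 and Id4, an inhibitor of proneural factors, by 1.81 ± 0.20. The third member that rose was Olig1, a factor of oligodendrocyte lineage cells (2.83 ± 0.71).

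Of 22 Dlx, Sp and other interneuron fate genes, 17 fell and 3 rose (median -2.56). Dlx2, a homeobox factor of progenitors and neuroblasts bound for the bulb, stood at 20.1, 11.3, 2.39 and 0 CPM at day 60 and at 814, 1017, 873 and 1079 at day 2 (fold -7.35 ± 0.58). Dlx1 stood at 45.7, 4.53, 4.79 and 0 CPM against 992, 978, 742 and 1202 at day 2 (fold -7.19 ± 0.66), and library 1 was the highest day-60 library for both genes. The antisense transcript Dlx6os1 had a fold of -7.39 ± 0.59 and Sp8, a factor of calretinin interneurons, of -6.54 ± 0.53. The 3 genes that rose were Nr2f2 (COUP-TFII) at 2.24 ± 0.43, Sall3 at 1.004 ± 0.28 and Zfhx4 at 0.67 ± 0.27.

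Of 24 neuroblast markers, 23 fell and 1 rose (median -5.38). Genes of the cytoskeleton of migrating neurons fell too: of 36 tubulins, stathmins and microtubule proteins, 28 fell and 2 rose (median -2.84). Dcx (doublecortin, chromosome X, 143855842 to 143933311), which steadies microtubules in the leading process, stood at 22.5, 2.26, 9.63 and 0 CPM at day 60 and at 705, 528, 586 and 637 at day 2. The groups did not overlap (fold -6.77 ± 0.58, adjusted p = 1.3e-08), and 117 of 220 day-2 cells and 1 of 348 day-60 cells held it. The neuronal tubulin gene Tubb3 had a fold of -6.36 ± 0.47, Stmn2 (a stathmin of growth cones) of -6.53 ± 0.66 and Dpysl3 (a collapsin response mediator) of -5.44 ± 0.47.

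The cytoskeletal genes that rose were Dclk1, a kinase relative of doublecortin that is also made in astroglia, at 2.04 ± 0.13, and Tubb2a at 0.43 ± 0.13. Tubb2a's direction depended on how cells were weighted, with a log2 fold of -0.17 when each cell counted alike. The neuroblast marker that rose was Ccdc88a (girdin), at 1.12 ± 0.12.

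Guidance, adhesion and migration genes went both ways, with 11 of 32 higher, 13 lower and a median of 0.01. St8sia2, which adds polysialic acid to NCAM on migrating neuroblasts, fell (-4.73 ± 0.54). Vcam1, an adhesion molecule that holds quiescent NSCs at the ventricle, rose (4.69 ± 0.57), as did the cadherin Cdh11 (4.03 ± 0.59) and the semaphorin and VEGF co-receptor Nrp1 (3.55 ± 0.68). Among Sox factors 4 of 10 rose and 3 fell (median 0.46). Sox11 and Sox4, of the SoxC class of newborn neurons, had folds of -5.32 ± 0.23 and -2.94 ± 0.38, and Sox9, of the SoxE class of astroglia, one of 2.29 ± 0.18. Sox13 rose by 1.37 ± 0.39.

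Astroglial genes were higher at day 60 in every tested case. Of 28 listed markers of quiescent NSCs and astrocytes, 24 were tested and 24 rose (median 5.11). Gfap, Mt3 and Thbs4 did not pass the filter. Gfap, the filament protein of astroglia, was held by 8 of 348 day-60 and 1 of 220 day-2 cells and Thbs4, a gene of NSCs, by 7 of 348 day-60 and 0 of 220 day-2 cells. The summed level of the list ran from 76303 to 83346 CPM over the day-60 libraries and from 2135 to 7375 over the day-2 libraries. These markers do not tell a quiescent NSC from an astrocyte.

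Aqp4, the water channel of astrocyte endfeet, stood at 1369, 1187, 1525 and 1185 CPM at day 60 and at 7.78, 0, 55.9 and 17.3 at day 2. Its fold of 6.73 ± 0.60 (adjusted p = 2.2e-08) was among the 15 highest, and 214 of 348 day-60 cells and 4 of 220 day-2 cells held it. Day-2 libraries 3 and 4 were higher than libraries 1 and 2 here, as they were for the summed astroglial list. Of 22 genes for glutamate, ion and water transport and gap junctions, 22 rose (median 5.02). They include the gap junction gene Gjb6 (6.53 ± 0.58), the glutamine transporter gene Slc38a3 (6.25 ± 0.60) and the cation channel gene Trpm3 (6.24 ± 0.52).

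**Figure D2:**
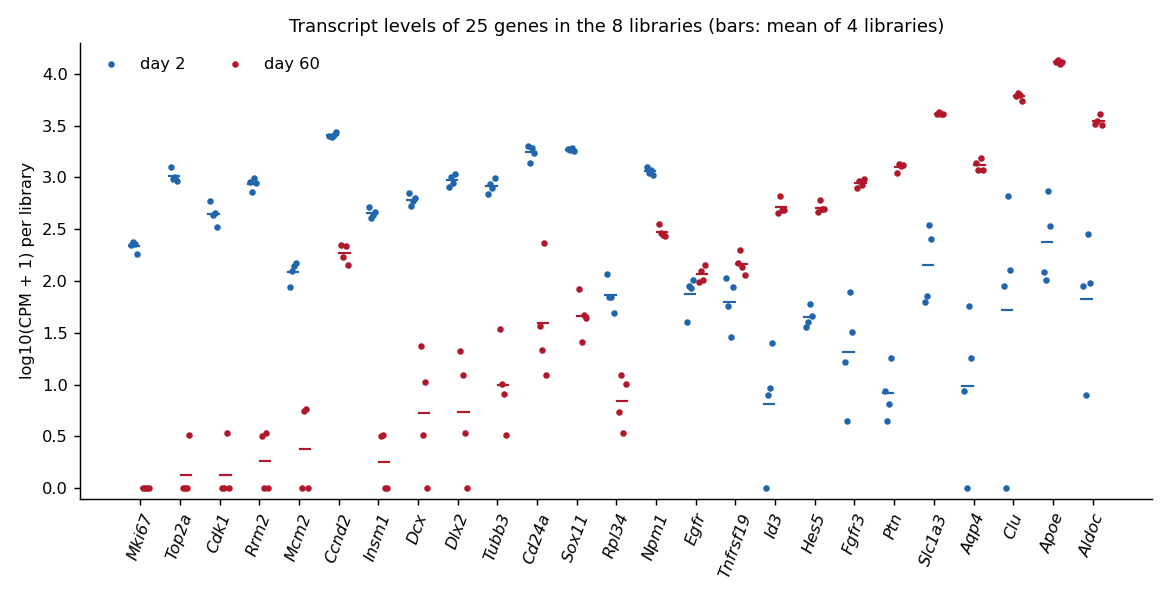
Level of 25 genes in each library, as log10 of CPM + 1 (vertical axis), with 1 point a library, day 2 in blue, day 60 in red and a bar at the mean of 4 libraries. Mki67, Top2a and Cdk1 lie at or near 0 in the 4 day-60 libraries, and for Aqp4 and Clu every day-60 library lies above every day-2 library.

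Lipid genes rose for the most part. Of 25 lipoprotein and fatty acid genes, 22 rose and 1 fell (median 2.23). Apoe, the main lipid carrier of astrocytes, stood at 12984, 13707, 12443 and 12848 CPM at day 60 against 122, 102, 743 and 342 at day 2 (fold 5.70 ± 0.32), and 337 of 348 day-60 cells held it. Clu, clusterin, had a fold of 6.47 ± 0.80, Lcat, which esterifies cholesterol on lipoproteins, of 5.40 ± 0.58 and Acsbg1, an acyl-CoA synthetase, of 4.84 ± 0.58. Fabp5, a fatty acid binding protein of progenitors, was the member that fell (-0.69 ± 0.14), a call lost when cells were thinned (adjusted p = 0.15), and 2 members fell under total or ERCC scaling or without day-2 library 2. Of 20 cholesterol synthesis enzymes 13 rose and 0 fell (median 1.34), among them Msmo1 (3.17 ± 0.16) and Mvd (2.98 ± 0.43).

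Of 15 glycolytic enzymes, 15 rose and none fell (median 1.63). Aldoc, the aldolase of astrocytes, had a fold of 5.58 ± 0.50, and the other aldolase Aldoa rose by 3.23 ± 0.22. Pfkm (phosphofructokinase) rose by 3.05 ± 0.38 and Tpi1 (triosephosphate isomerase) by 2.99 ± 0.30. Respiratory chain subunits encoded in the nucleus gave a mixed count, with 9 of 73 higher and 32 lower (median -0.35). Ndufa4, Ndufa5, Ndufs4 and Cox7a2 had folds of -1.24 ± 0.24, -1.20 ± 0.22, -1.34 ± 0.19 and -1.53 ± 0.15, and Ndufa5 did not pass with cells thinned (adjusted p = 0.078), while Cyc1 and Ndufv1 rose by 1.14 ± 0.20 and 0.93 ± 0.23. Under scaling by ERCC transcripts 4 of these subunits rose in place of 9, and without day-2 library 3 the number was 3.

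Of 20 extracellular matrix and protease genes of the niche, 19 rose and 1 fell (median 4.46). Lama2 (5.26 ± 0.60) encodes a laminin chain of the basement membranes that NSCs touch, Timp3 (5.79 ± 0.54) an inhibitor of metalloproteases and Htra1 (6.43 ± 0.62) a secreted protease. Lamb2 had a log2 ratio of 6.91 (95% counting interval 4.42 to 12.23) from 1 to 3 day-2 transcripts. Vcan, versican, the member that fell (-1.98 ± 0.21), is a matrix proteoglycan of immature tissue.

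Of 36 lysosomal hydrolases, membrane proteins and V-ATPase genes, 25 rose and 1 fell (median 1.48). Ctsd and Ctsf, cathepsins, had folds of 3.26 ± 0.25 and 3.51 ± 0.45, Gaa, the acid glucosidase, of 3.85 ± 0.38 and Tpp1, a peptidase, of 3.22 ± 0.29. The V-ATPase subunit Atp6v1g1 fell (-1.05 ± 0.17). Proteasome subunits went the other way, with 21 of 31 lower and 2 higher (median -0.77), for example Psma1 (-1.56 ± 0.17), Psmd14 (-1.73 ± 0.17) and Psmc6 (-1.76 ± 0.18), against Psmd11 (1.17 ± 0.24) and Psmd13 (0.57 ± 0.22). Psmd13 no longer passed under total scaling (adjusted p = 0.060), ERCC scaling (0.10) or without day-2 library 1 (0.12) or 3 (0.12), which left 1 subunit that rose.

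Of 23 metallothionein and antioxidant genes, 14 rose and 5 fell (median 1.80). Mt1, a metal-binding protein, rose by 3.37 ± 0.27, the glutathione transferases Gsta4 and Gstm1 by 5.76 ± 0.59 and 3.87 ± 0.24 and the selenium carrier Sepp1 by 3.43 ± 0.22. Txnip and Prdx2 fell (-2.13 ± 0.28 and -2.08 ± 0.16). Of 9 genes for handling thyroid hormone, 9 rose (median 3.97), among them the thyroxine transporter gene Slco1c1 (5.09 ± 0.61), the triiodothyronine-binding crystallin Crym (4.84 ± 0.71) and the thyroid hormone target Klf9 (4.39 ± 0.44). Crym was held by 115 of 348 day-60 cells and 4 of 220 day-2 cells.

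The machinery of protein synthesis was lower at day 60. Of 76 cytosolic ribosomal protein genes, 75 fell and none rose (median -1.97). Summed, they took 22549 to 30985 CPM in the day-60 libraries and 90704 to 102340.0 at day 2. Rpl37 had a fold of -3.42 ± 0.22, Rpl34 of -3.35 ± 0.49, Rpl31 of -2.87 ± 0.23 and Rpl32 of -2.83 ± 0.15. Leaving ribosomal protein genes out of totals and scaling gave 2624 higher and 2504 lower genes, close to the counts above.

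Of 36 translation initiation and elongation factors, 27 fell and 1 rose (median -1.18). Eif4a1, the helicase that unwinds mRNA leaders, had a fold of -2.79 ± 0.15 and Eif2s3x, a subunit of the factor that carries the initiator tRNA, of -2.44 ± 0.25, whereas the scaffold Eif4g1 rose (2.52 ± 0.38). Of 19 ribosome assembly and nucleolar genes 15 fell (median -1.0), with folds of -1.94 ± 0.13 for nucleophosmin (Npm1) and -1.89 ± 0.27 for fibrillarin (Fbl), and 1 rose (Nip7, 0.57 ± 0.10). Reads assigned to Rn45s, the ribosomal precursor, stood at 57890, 61524, 67727 and 67235 per 1000000 of all gene transcripts, unscaled, at day 60. At day 2 they stood at 84.8 ± 22.4 (SD, n = 4). The protocol reads polyadenylated RNA, and sequencing run and day cannot be told apart. These values were therefore not taken as levels of precursor RNA in the cells. Rn45s was left out of totals and tests with the other symbols named above. With all of them kept, 2658 genes were higher and 2510 lower.

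Splicing factors and hnRNPs were also lower, with 38 of 43 falling and 1 rising (median -1.91). The Sm ring genes Snrpe, Snrpf and Snrpg had folds of -3.23 ± 0.19, -3.92 ± 0.30 and -3.50 ± 0.17 and Hnrnpab one of -3.41 ± 0.18, while Snrnp70, of the U1 particle, rose by 2.14 ± 0.16. Of 27 DNA methylation and chromatin regulators, 18 fell and 6 rose (median -0.66). Dnmt1, which copies DNA methylation at replication, had a fold of -3.75 ± 0.31, and its partner Uhrf1 a log2 ratio of -7.40 (95% counting interval -12.72 to -4.89). The Polycomb methyltransferases split, Ezh2 at -3.54 ± 0.28 and Ezh1 at 1.99 ± 0.40, a call lost when each cell counted alike (adjusted p = 0.052). Bmi1, of the other Polycomb complex, fell (-2.96 ± 0.22) and Kmt2a, an H3K4 methyltransferase, rose (1.41 ± 0.18).

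Of 27 heat shock and chaperone genes, 8 rose and 17 fell (median -0.84). Those that rose included the small heat shock proteins Cryab (4.78 ± 0.81) and Hspb1, at least 61.4-fold higher, and the inducible Hspa1a (4.55 ± 0.92) and Hspa1b (2.80 ± 0.60). Hspa1b stood at 67.3, 149, 2.74 and 69.6 CPM at day 2, and without day-2 library 3, the low one, its fold was 1.38. Immediate early genes, which answer stimuli and also tissue dissociation, gave 8 of 15 higher and 3 lower (median 1.10), with Klf4 at 4.78 ± 0.75, Klf2 at 3.22 ± 0.58 and Jund at -1.18 ± 0.17. The part of dissociation in these values was not tested.

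Of 17 Notch receptors, ligands and targets, 11 rose and 4 fell (median 2.19). Hes5 and Hes1, repressors induced by Notch that hold back proneural genes, had folds of 3.45 ± 0.23 and 4.64 ± 0.70. Hes5 stood at 459, 598, 496 and 493 CPM at day 60 and 35.4, 38.8, 58.99 and 45.5 at day 2, and 127 of 348 day-60 cells and 4 of 220 day-2 cells held it. Hes6, which opposes Hes1 and is made in committed neuronal precursors, fell (-2.34 ± 0.28), as did the fringe gene Mfng (-3.52 ± 0.55). Dtx1 rose by 3.46 ± 0.53.

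Of 16 BMP, TGF-beta and Id genes, 8 rose and 3 fell (median 1.18). Id3, an inhibitor of proneural factors induced by BMP, stood at 449.9, 655, 487 and 479 CPM at day 60 against 0, 6.98, 8.24 and 24.2 at day 2 (fold 5.99 ± 0.55), and 125 of 348 day-60 cells and 1 of 220 day-2 cells held it. The BMP receptor Bmpr1b rose (4.32 ± 0.58) and the ligand Tgfb2, absent from the day-2 libraries, was at least 25.3-fold higher. Bmp7 had a log2 ratio of 6.16 (95% counting interval 3.65 to 11.48). Tgfbr1, a TGF-beta receptor, and Smad5, a BMP effector, fell (-1.50 ± 0.27 and -1.28 ± 0.24).

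Of 18 growth factor receptors, ligands and feedback genes, 12 rose and 3 fell (median 1.71). Ptn, pleiotrophin, a secreted growth factor of astroglia (chromosome 6, 36714929 to 36810220), stood at 1097, 1337, 1298 and 1307 CPM at day 60 and at 7.76, 3.48, 5.49 and 17.2 at day 2 (fold 7.14 ± 0.43). After thinning it was held by 213 of 348 day-60 cells and 0 of 220 day-2 cells, and without thinning by 305 and 8. The receptor gene Fgfr3 rose (5.21 ± 0.47), while the ETS factor Etv1 fell (-2.82 ± 0.24) and Igfbpl1, an IGF-binding protein of newborn neurons, had a log2 ratio of -6.96 (95% counting interval -9.26 to -5.41).

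Of 20 Wnt receptors, modulators and targets, 15 rose and 3 fell (median 2.31). Daam2, a formin-like Wnt modulator of glia, had a fold of 6.21 ± 0.50. Wnt7b, Sfrp5 and Tcf7l1 had 1 to 3 transcripts at day 2 and log2 ratios of 5.39 (95% counting interval 3.83 to 7.69), 5.97 (95% counting interval 3.45 to 11.28) and 6.46 (95% counting interval 3.95 to 11.77). Ctnnb1, beta-catenin, fell (-1.95 ± 0.15) together with the receptor gene Fzd3 (-0.79 ± 0.21). Of 6 Hedgehog pathway genes 4 rose, among them the transducer Smo (2.25 ± 0.48) and the effector Gli3 (3.97 ± 0.55), and 2 fell, the co-receptor Cdon (-2.47 ± 0.42) and the repressor Sufu (-1.56 ± 0.41).

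Receptors and release genes of GABA and glutamate were higher in 13 of 19 cases and lower in 5 (median 1.36). Gabrb1 (6.48 ± 0.47), Grin2c (6.02 ± 0.55) and Grm3 (5.27 ± 0.64), which astroglia express, rose. Snap25, of nerve terminals, fell (-0.93 ± 0.24). Without day-2 library 3 or day-60 library 2, 3 genes of this list fell. Interferon response and MHC class I genes were higher in 14 of 17 cases and lower in 1, Ifit2, which no longer passed without day-2 library 3 or day-60 library 1 (median 2.20), with H2-K1, a class I heavy chain, at 4.51 ± 0.52, Ifitm3 at 4.92 ± 0.88 and Tapbp at 2.75 ± 0.44.

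Surface markers by which other sorts of the series were made behaved differently from each other. Slc1a3, the glutamate transporter GLAST of astroglia (chromosome 15, 8634124 to 8710764), stood at 4098, 4244, 4097 and 4088 CPM at day 60 and at 62.4, 70.1, 347 and 253 at day 2, with day-2 libraries 3 and 4 above libraries 1 and 2 (fold 4.79 ± 0.30). Cd24a, the neuroblast antigen CD24, stood at 36.04, 20.4, 234 and 11.4 CPM at day 60 against 2008, 1385, 1926 and 1727 at day 2 (fold -5.51 ± 0.46). Library 3 of day 60 held most of it, and without that library the fold was -6.30.

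Tnfrsf19 (Troy), a receptor of the TNF family that marks NSCs in this series, stood at 147, 198, 137 and 114 CPM at day 60 and at 105, 56.4, 27.5 and 87.3 at day 2. The lowest day-60 library lay above the highest day-2 library (fold 1.30 ± 0.31, adjusted p = 0.0012; 0.81 without day-2 library 3), and 46 of 348 day-60 cells and 6 of 220 day-2 cells held a transcript. Egfr, the EGF receptor of activated NSCs, stood at 97.9, 125, 101 and 142 CPM at day 60 and at 38.9, 88.2, 85.6 and 100.4 at day 2. These ranges overlapped, and its fold of 0.59 ± 0.25 (adjusted p = 0.045) did not pass in 11 of 19 alternatives, such as scaling by totals (0.49, adjusted p = 0.092) or without day-2 library 1 (0.28, adjusted p = 0.26). In the other 8 it passed, and it was largest when each cell counted alike (1.07, limma-trend adjusted p = 0.0032). Transcripts of Egfr were found in 37 of 348 day-60 and 10 of 220 day-2 cells. Prom1, the antigen of ventricle-contacting cells, stayed below the filter at 15.6, 6.79, 38.5 and 9.11 CPM at day 60 and 23.3, 3.48, 22 and 48.04 at day 2.

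Markers of other cell types of the ventricle wall were looked at in the same libraries. Of 12 choroid plexus markers 5 were tested and rose (median 5.65), of 13 endothelial markers 5 were tested and rose (median 5.54), and of 14 oligodendrocyte markers 4 were tested and rose (median 3.29). The pericyte list of 11 gave 1 tested gene, Pdgfrb, with a log2 ratio of 7.18 (95% counting interval 4.68 to 12.49), the fibroblast list of 8 gave Igf2 and Col1a2, and the ependymal list of 13 gave Rarres2, all of which rose. Of oligodendrocyte precursor markers Cspg5 (3.87 ± 0.26) and Olig1 rose and Vcan fell, of 3 tested. These short counts turned on the libraries: leaving out a day-2 library let more genes reach the filter, and then up to 8 choroid, 8 endothelial, 4 fibroblast and 2 pericyte markers rose, whereas without day-60 library 1, 2 or 3 Rarres2 was not called. With day-60 library 1, 2 or 4 left out, 1 fibroblast marker rose.

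Microglia and macrophage markers gave 3 higher (Tyrobp, Fcer1g and Laptm5) and none lower of 12. Their summed levels of 571 to 1231 CPM at day 60 and 46.7 to 2202 at day 2 overlapped. Without day-2 library 3, 1 rose and 1 fell, and without day-60 library 2, 6 rose. Mature neuron markers gave 2 higher (Snhg11 and Grin2b) and 2 lower (Snap25 and Syn1) of 5 tested. Without a day-2 library 4 rose, and without day-2 library 3 or day-60 library 2 or 3, 1 fell. The part of these cells in the counts of other lists was not tested.

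Ttr, transthyretin, the main secreted protein of the choroid plexus, stood at 28792, 3648, 7742 and 2436 CPM in day-60 libraries 1 to 4 and at 0 in every day-2 library. It was at least 4329-fold higher at day 60, or at least 1827-fold without library 1, which stood well above the other day-60 libraries. The choroid genes Kl (klotho) at 246, 42.01, 36.4 and 34.7 CPM and Prlr (the prolactin receptor) at 265, 30.04, 107.9 and 54.6 CPM, both at 0 at day 2, were highest in library 1 as well. So was Enpp2 (autotaxin), at 5302, 918, 1383 and 684 against 54.5, 56.1, 68.8 and 34.3 at day 2. The bounds of Kl and Prlr fell from at least 36.6-fold and 46.2-fold higher to 15.1-fold and 25.4-fold without library 1, and that of Igf2, a gene of choroid plexus and meninges, from 113-fold to 46.8-fold. Without library 1 the fitted log2 fold of Ttr was 11.28 in place of 11.96, that of Prlr 5.11 in place of 5.65, that of Kl 4.56 in place of 5.21 and that of Igf2 5.87 in place of 6.60. All 4 still passed.

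Ttr was spread widely and unevenly over cells. Without thinning, at least 1 transcript was found in 100%, 81.2%, 100% and 59.3% of cells in day-60 libraries 1 to 4. The medians were 28.5, 2.0, 6.07 and 1.00 a cell. The 10 cells richest in Ttr held 82.2%, 91.6%, 86.4% and 94.01% of it. Ttr was thus also found, at low counts, in cells outside the 10 richest, and the medians had the same order as the libraries' levels of Ttr. The 220 day-2 cells held none. The part of free RNA in these low counts was not tested.

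**Figure D3:**
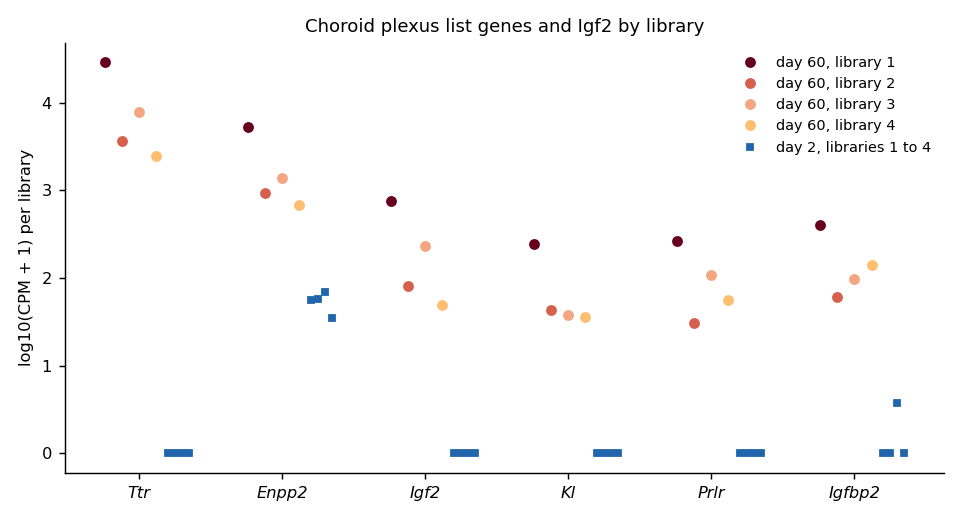
Level of choroid plexus list genes and Igf2 as log10 of CPM + 1 (vertical axis) in each of the 8 libraries (1 point a library, day 2 as blue squares). Day-60 library 1 is the highest for each gene shown, for Ttr at 28792 CPM against 2436 to 7742 in the other day-60 libraries and 0 at day 2.

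Of the endothelial list, Ly6c1 stood at 59.2, 60.03, 240.5 and 152 CPM at day 60 and 0 at day 2 (at least 50.5-fold higher), and the organic anion carrier gene Slco1a4 was also at 0 at day 2 and at least 35-fold higher. Ly6a of the same list had a log2 ratio of 6.19 (95% counting interval 4.32 to 9.25). Mgp, matrix Gla protein of vessel walls and fibroblasts, and Igfbp7, of vessels, were at 0 at day 2 and at least 172-fold and 131-fold higher. By the fitted fold both were among the 15 highest of all.

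Single cells were then scored after each had been thinned to 1000 transcripts, which left out 1 day-60 cell and kept 348 and 220. A cell counted for a list when it held at least 3 of its markers. By this count 11.8% ± 2.55 of day-2 cells and 98.3% ± 1.46 of day-60 cells (SD, n = 4 libraries) held astroglial markers. For neuroblast markers the shares were 93.8% ± 1.44 at day 2 and 6.58% ± 3.22 at day 60, and for progenitor markers 40.9% ± 6.97 and 2.57% ± 1.06. Mitotic markers were held by 29.5% ± 5.82 of day-2 cells and by 0 of 348 day-60 cells at this depth. Without thinning, 7 of 349 day-60 cells held mitotic markers (2.02% ± 1.46), against 43.1% ± 6.77 of day-2 cells. Libraries did not overlap for any of these 4 lists. Exact 2-sided permutation tests of 4 against 4 libraries gave p = 0.0286, the smallest they can give, and 0.0619 after adjustment over 13 lists, so none passed.

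Depth moved these shares. Without thinning, cells held a median of 5045 ± 141 transcripts at day 60 and 3837 ± 440 at day 2, and astroglial markers were then counted in 100% and 50.1% of cells and neuroblast markers in 52.1% and 98.2%. At full depth, cells of either day thus reached 3 markers of the other day's leading class. In 1000 transcripts a cell gave a median of 718 genes at day 60 and 734.5 at day 2. Gene transcripts per ERCC transcript, a measure of RNA per cell, were 11.6 ± 0.654 at day 60 and 10.97 ± 1.90 at day 2 (exact permutation p = 0.771). Those totals hold Rn45s and the other symbols left out of the tests. Without these symbols the ratios were 10.73 ± 0.563 and 10.85 ± 1.87 (exact permutation p = 0.943). Of 7 depth measures, cells per library, median transcripts, median genes and median genes in 1000 transcripts did not overlap between the days. Each had p = 0.0286, the smallest an exact permutation test of 4 against 4 can give, and an adjusted p of 0.05, which is not under the threshold.

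**Figure D4:**
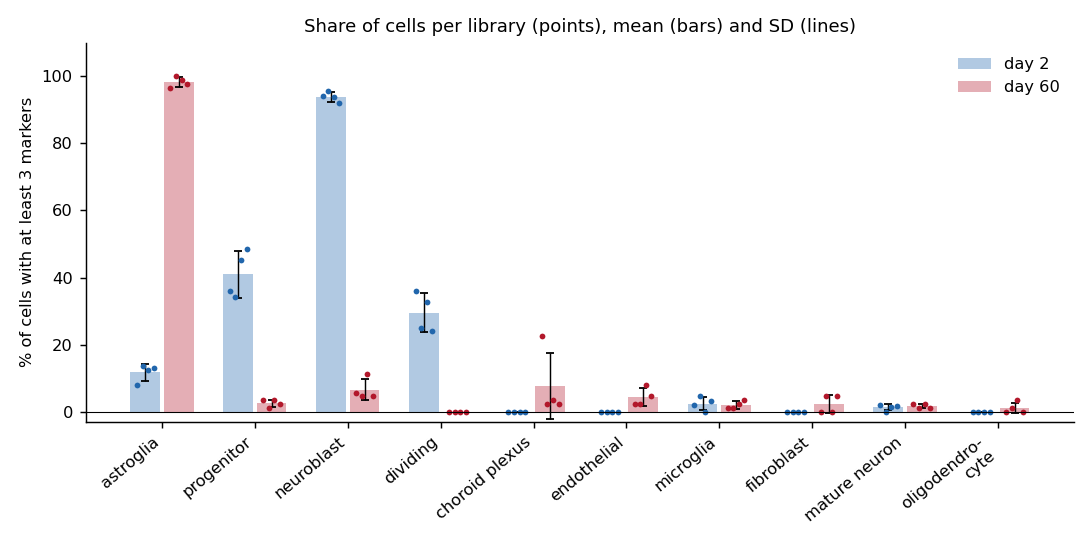
Share of cells (vertical axis, percent) with at least 3 markers of each list after thinning to 1000 transcripts, with 1 point a library, bars at the means of 4 libraries and lines of 1 SD. Astroglial shares are above 95% in the day-60 libraries, and the choroid share of day-60 library 1 (22.5%) lies above those of the other day-60 libraries (2.33% to 3.41%). The choroid marker Ttr alone was held by 98.9% of thinned cells of day-60 library 1.

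Cells were also compared by the amount of list transcripts. Per 1000 transcripts, the median cell held 90 astroglial and 2 neuroblast transcripts at day 60 and 1 and 32 at day 2. Astroglial transcripts outnumbered neuroblast transcripts in 340 of 348 day-60 cells (97.7%) and in 18 of 220 day-2 cells (8.18%), and 13 and 12 cells lay within 5 transcripts of equality. At day 2, 63 of 65 cells with mitotic markers and 86 of 92 with progenitor markers also held neuroblast markers, and 37 of the 65 held progenitor markers. Mitotic, progenitor and neuroblast markers thus overlapped in the same day-2 cells, so these lists do not count separate cells.

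**Figure D5:**
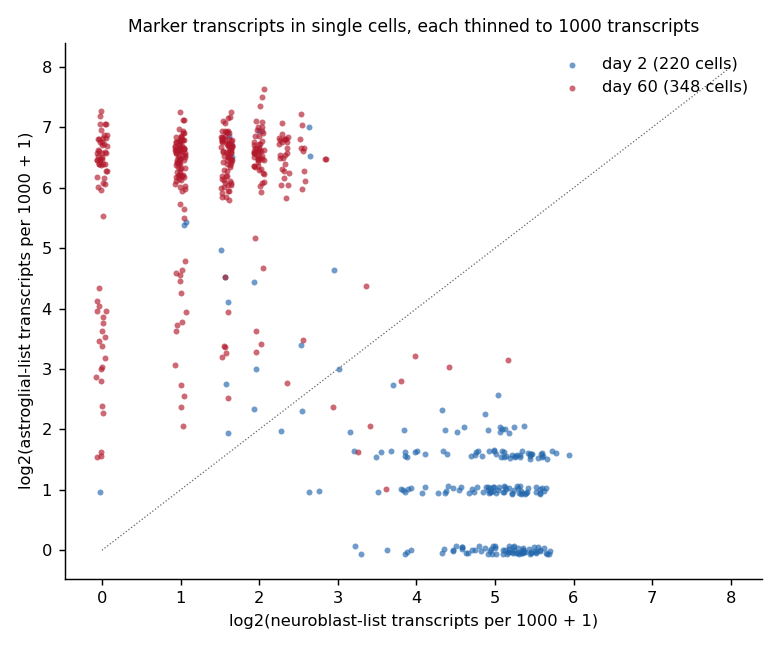
Astroglial list transcripts (vertical axis) against neuroblast list transcripts (horizontal axis) per 1000 transcripts of each cell, both as log2 of the number + 1 with a small spread added, 1 point a cell, day 60 in red, day 2 in blue and a dotted line where both are equal. Most day-60 cells lie high and to the left, around the median of 90 astroglial and 2 neuroblast transcripts, and most day-2 cells low and to the right.

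A few day-2 cells carried astroglial transcripts at the day-60 level. Of 220, 5 reached the lower quartile of day-60 cells (66.8 per 1000), at 92 in library 1, 131, 112 and 119 in library 3 and 89 in library 4. This cut was set after the values had been seen. These 5 cells held 2 to 5 neuroblast transcripts per 1000. Their ribosomal protein transcripts were 22, 18, 16, 18 and 25 per 1000, against a median of 97 over all day-2 cells (5th to 95th percentile 55 to 137) and of 13 over the 261 day-60 cells above the same cut (5 to 23). The low ribosomal level was thus seen in astroglial cells of both days, by a description of 5 cells without a test.

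At day 60 a minority of cells was poor in astroglial transcripts. Below 40 per 1000, a cut also set after the values had been seen and with 3 cells between 30 and 50, lay 59 of 348 cells (16.95%), with 15, 13, 17 and 14 in libraries 1 to 4. Of these, 15 held at least 3 endothelial markers, 12 choroid (8 of them in library 1), 9 neuroblast, 8 fibroblast, 6 microglia and 6 mature neuron markers, and 9 held 3 markers of no other list. Above the cut, 0 of 289 cells held 3 endothelial or fibroblast markers, while 15 held choroid and 14 neuroblast markers. All 15 cells with endothelial markers and all 27 with choroid markers also held at least 3 astroglial markers, as did 53 of the 59 cells and 342 of all 348. Of the 27 cells with choroid markers, 20 were among the 89 cells of library 1 and 7 among the 259 of the other libraries. Ttr is itself a choroid marker. After thinning it was found in 98.9%, 44.7%, 75% and 23.3% of cells in day-60 libraries 1 to 4. Cells of library 1 thus mostly started with 1 choroid marker, and these counts do not give the number of choroid plexus cells.

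Over the whole table the 15 highest folds, among genes whose groups did not overlap and that reached 50 CPM, were those of Ttr, 2900060B14Rik, Mgp, Igfbp7, Ptn, Prex2 (a Rac exchange factor, 6.98 ± 0.50), Syne1 (nesprin 1, 6.84 ± 0.57), Pbxip1 (6.76 ± 0.52), Arhgap5 (6.74 ± 0.53), Aqp4, Ntm (neurotrimin, 6.66 ± 0.53), Aldh1l1, Ppp1r1b, Igf2 and Ptprb. The log2 ratio of 2900060B14Rik was 10.08 (95% counting interval 7.61 to 15.39). Aldh1l1, the folate enzyme by which astrocytes are often marked, and Ptprb, a phosphatase of endothelium, were at 0 at day 2 and at least 69.2-fold and 70.4-fold higher. The 15 lowest were the cycle genes Top2a, Rrm2, Pbk, Cdk1, Ckap2, Birc5, Mki67, Kif23, Racgap1 and Bub1, the neurogenic genes Insm1, Dlx6os1, Dlx2 and Dlx1, and 1190002F15Rik (at least 125.6-fold lower). Both orders are those of the fitted log2 fold, also for genes at 0 or with 1 to 3 transcripts in 1 group. Bounds and count ratios would order genes otherwise: Nusap1 (ratio -8.56) and Igfbp2 (ratio 7.71) are not among those named here. The top of the table thus mixed astroglial genes with genes of vessels and choroid plexus, and the bottom held cycle and interneuron fate genes.

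Some genes had a fold near 0. The 95% interval of the fold lay within 0.5 of 0 for 143 genes of 7570, and the 10 most abundant of them included the ATP synthase genes Atp5b (-0.04 ± 0.13), Atp5c1 (-0.12 ± 0.13) and Atp5g3 (0.03 ± 0.15), the superoxide dismutase Sod1 (-0.15 ± 0.15), Chchd2 (-0.18 ± 0.14) and the adhesion molecule Ncam1 (-0.10 ± 0.11), whose polysialylation enzyme St8sia2 fell. Ncam1 stood at 636, 751, 734 and 698 CPM at day 60 and at 733, 677, 808 and 783 at day 2. When each cell counted alike, Ncam1 and Serinc1 were called lower, at -0.63 (limma-trend adjusted p = 0.00028) and -0.39 (0.010). With each cell thinned to 1000 transcripts, 4 of the 10 were called higher: Loxl2 at 0.69 (limma voom adjusted p = 0.0012), Chchd2 at 0.57 (0.0093), Atp5g3 at 0.55 (0.0069) and Atp5b at 0.51 (0.037). Arl6ip1 lost the narrow interval in 14 alternatives, and each of the 10 lost it in at least 2. The remaining members were Arl6ip1 (0.02 ± 0.22), Serinc1 (0.15 ± 0.12), Tmem69 (0.12 ± 0.14) and Loxl2 (0.20 ± 0.14).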

How the data were processed

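Polyadenylated RNA of sorted single cells was measured in 8 libraries. The submitters' processing notes name the mapper BWA 0.6.2-r126 and the build mm10. In the deposited tables each gene has, per well, a transcript number that the authors estimated from molecular barcodes; its unit was entered as other, since it is neither a raw read number nor scaled. Of 1369652 values above 0, 1369644 were whole barcode numbers out of 256 once a collision correction was reversed (tolerance 1e-06), and 8 stood at saturation. No well held the same values in 2 libraries. No doublet caller was run, since each well received 1 sorted cell.

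Transcripts were summed per library over wells with at least 1000, leaving out ERCC rows and 388 symbols. A gene was tested if at least 4 libraries (3 where a library was left out) each held the equivalent of about 10 of its transcripts at the median depth, and all libraries together 15. Sums were scaled by a trimmed mean of M values and tested with limma voom 3.58.1 in R 4.3.3, with Benjamini-Hochberg adjustment. It was also run on simulated data with 7416 genes, drawn around a mean profile shared by both days. There 51, 67 and 74 tested genes were changed by 0.5, 1 and 2 on the log2 scale. Of these it recovered 7.84%, 47.8% and 98.6%, and 4.39% of its calls were false. Far fewer genes changed there than differed between the days, so these rates do not carry over to this comparison. The planned edgeR and DESeq2 fits were not run, since the values are not counts. Same-numbered libraries were not treated as pairs. Shares and depths were compared with exact permutation tests. Intervals and floors (3 transcripts over a group) cover counting error only.

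Named genes are the sort genes, up to 4 per list with the largest fold that passed without overlap at 50 CPM or more, up to 2 in the opposite direction, the 15 highest and 15 lowest of all genes and 10 level genes. Some genes that this rule names are not reported here, and any other gene named was chosen after its values were seen. The groups, lists and marker sets were chosen with earlier results of these data known. Promoters came from RefSeq windows and gene positions from GENCODE. Alternatives varied the scaling, filter, minimum per cell, thinning, weighting of cells, symbols left out, the test, and left out each library.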

Additional observations from a re-analysis of the deposited data

Results flagged for a closer look

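Of 401 groups of 4 libraries looked at, 24 (5.99%) held a library far from the other 3 by Dixon's criterion, which chance alone gives in about 5% of groups. At day 60 the highest library stood apart for Kl (246 CPM, library 1), Slc1a3 (4244 CPM), Bsg (926 CPM), Ctsf (191 CPM), Pfkm (204 CPM), Cd24a (234 CPM), Rpl37 (84.8 CPM), Tgfbr1 (77.6 CPM), Dlx1 (45.7 CPM) and St8sia2 (13.4 CPM). The lowest stood apart for Ptn (1097 CPM), Ctnnb1 (171 CPM) and Ly6a (61.7 CPM). The wide ratios of the low genes among these rest on few transcripts.

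At day 2 the highest library stood apart for Sp8 (312 CPM), Tgfbr1 (185 CPM), St8sia2 (132 CPM), Ifitm3 (94.9 CPM) and Hspa1a (57.4 CPM), and the lowest for Psmc6 (209.8 CPM), Tk1 (110.2 CPM) and Smad5 (69.96 CPM). The share of cells with 3 choroid plexus markers reached 22.5% in day-60 library 1 and that with 3 neuroblast markers 11.4% in day-60 library 3. Day-2 library 4 held 8.13 gene transcripts per ERCC transcript, below the other day-2 libraries.

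Among symbols left out of the tests, Rn45s averaged 63594 and Lars2 1828 per 1000000 of all gene transcripts (unscaled) at day 60, each far above its level in every day-2 library (84.8 ± 22.4 and 17.6 ± 10.7, SD, n = 4). The day-60 tables carry a flow cell in their names and the day-2 tables none, so sequencing run and day cannot be told apart for these RNAs.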

How the results depend on the processing

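In none of 20 alternatives did a gene that passed above pass in the opposite direction. Between 2317 and 2589 genes fell and 2606 to 2824 rose when 1 library was left out, and 2586 rose and 2447 fell with the replicate number as a block. In their deviations from the mean of their group, same-numbered libraries correlated at 0.026 to 0.071 and other pairs at -0.050 to 0.033. The same-numbered values were under the threshold of 0.1 for pairing, although 6 of 8 libraries correlated best with their own number. Genes that rose numbered 4273 with no filter and, with each cell thinned to 1000 transcripts, 703 rose and 609 fell of 1738 tested. The median of all genes moved from -0.07 (total scaling) to 0.16 (no filter), and genes that rose made up 48.4% to 57.9% of calls. Among named genes 4021 values kept direction and call or, for level genes, the narrow interval, and 78 lost the call or that interval. The latter were values of 17 genes, chiefly Egfr, Psmd13 and level genes. Outside the level genes Tubb2a alone changed sign, to -0.17 when each cell counted alike. Signs of level genes were not compared, and Chchd2 went from -0.18 to 0.57 with thinning. Of 199 named genes with a fold over 0.5, the fold moved by over 1.5 times on the log2 scale for 64 when each cell counted alike (smaller in 61) and for 12 when cells were thinned. Of list counts 1778 stayed within 1.5 times and 142 moved.

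Differences in the shares of cells (day 60 minus day 2) had an adjusted p of 0.0371 by the exact permutation test without thinning. They were 49.9 points for astroglial, -33.4 for progenitor, -46.1 for neuroblast and -41.1 for mitotic markers. With thinning they were 86.5, -38.4, -87.2 and -29.5. With at least 2 markers they were 69.4, -58.5, -62.6 and -35.9 (adjusted p = 0.0413). The adjusted values fell because more lists reached the smallest p that the test can give, so they are no stronger evidence for these 4 lists. Small shares turned sign: mature neuron to -7.10 (not thinned), -2.21 (thinned to 2000), -9.82 (at least 2 markers) and -0.0103 (without day-2 library 2; up to 0.656 without another library), oligodendrocyte precursor to 2.88 (not thinned) and 8.03 (at least 2 markers), and microglia to 1.25 (not thinned), 0.413 (thinned to 2000) and 0.273 (without day-2 library 2; down to -1.24 without another library). The difference in median transcripts per cell was 699.9 at a minimum of 2000, and gene transcripts per ERCC transcript differed by -0.327 to 0.977 without 1 library, lowest without day-2 library 4. The causes were not tested. Planned fits with edgeR and DESeq2 were not run.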
